A study of Mus musculus with 3 samples.

Results

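Cells of the diaphragm other than fibro-adipogenic progenitors (FAPs) were compared between whole-body *Thbs1* knockout (KO) mice and wild-type (WT) mice that had both eaten a high-fat diet (HFD). Only barcodes without a UMI of *Pdgfra*, a receptor gene that marks FAPs, entered the comparison. They were sorted by marker counts into 4 gates. A UMI, or unique molecular identifier, marks 1 captured mRNA molecule. Muscle stem cells were barcodes with at least 2 UMIs of *Pax7*, *Myf5* and *Cdh15* together and none of *Ptprc*, the gene of the pan-leukocyte antigen CD45. Endothelial cells needed at least 3 UMIs of *Pecam1*, *Flt1* and *Ptprb* and none of *Ptprc*. Macrophages needed at least 5 UMIs of *C1qa*, *C1qb* and *C1qc*, and B cells at least 3 of *Cd79a* and *Cd79b*. The gates held 2286 of the 8143 barcodes in the 2 HFD libraries, out of 12275 in the whole series.

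Thrombospondin-1, the product of *Thbs1*, is a matricellular protein that is secreted into the matrix and blood, binds CD36, CD47 and integrins, and can release TGF-β from its latent complex. Muscle stem cells keep the regenerative pool of the muscle and leave quiescence to form myoblasts. Endothelial cells line blood and lymphatic vessels, C1q-producing macrophages are the main phagocytes of resting muscle, and B cells are lymphocytes that mature into antibody-secreting plasma cells.

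All 3 groups were male mice that ate chow until 2 months of age. The WT groups were labelled C57Bl/6J and then kept a control diet (CD) or took an HFD with 45% of calories from lipid for 6 months. The KO group carried the allele labelled B6.129S2-Thbs1tm1Hyn/J, a constitutive deletion in every cell held on a C57BL/6J background, and took the same HFD for 6 months. Costal diaphragm was digested with collagenase II and red cells were lysed. DAPI served as the dead cell marker in flow cytometry. Each library pooled 2 mice, which mouse a barcode came from was not used here, and with a single library a side the genotype comparison has no replicate check. The WT CD library held 34312860 UMIs over 4132 barcodes, the WT HFD library 31967976 over 3774 and the KO HFD library 36478779 over 4369. Median UMIs per barcode were 7632.5, 8041.5 and 7554.

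The muscle stem gate held 301 WT CD, 260 WT HFD and 436 KO HFD barcodes. As a share of its library this was 7.28%, 6.89% and 9.98%, and the KO HFD share was 1.45 times the WT HFD share (95% counting interval 1.24 to 1.70). The endothelial gate ran the other way, with 307, 351 and 269 barcodes and a KO HFD to WT HFD ratio of shares of 0.662 (0.563 to 0.778). Macrophage barcodes numbered 188, 378 and 358 (ratio 0.818, 0.706 to 0.948), and B barcodes 424, 166 and 97 (ratio 0.505, 0.389 to 0.652). All intervals here cover counting error only, not differences between mice or digestions, and a share of barcodes also moves when another class grows. With barcodes thinned to 3000 UMIs, which left 3444 WT HFD and 3975 KO HFD barcodes of at least that depth, the muscle stem and endothelial ratios were 1.37 and 0.622.

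The names of the gates held up against markers that the gates did not use. In the muscle stem gate all 10 markers such as *Sdc4*, *Des* and *Fgfr4* were measured, and none was called between the genotypes (summed level 3399 CPM in WT HFD and 3152 CPM in KO HFD). CPM is the summed count of a gene over the barcodes of a gate in 1000000 UMIs of that sum. Blood endothelial markers summed to 5361 and 4933 CPM in the endothelial gate against 109 and 92.0 CPM in the muscle stem gate. Macrophage markers summed to 22171 and 17754 CPM in the macrophage gate. In the B gate, B cell markers summed to 7466 and 17973 CPM, of which *Ighm* alone had 5324 and 16156 CPM. Without the plasma-type barcodes described further on, *Ighm* had 2305 and 2254 CPM. Macrophage markers also reached 2061 and 1958 CPM in the B gate, with *Lyz2* as the most abundant. At the edge of the rule, 47 WT HFD and 97 KO HFD barcodes sat exactly at the muscle stem threshold and 43 and 68 lay 1 UMI below it. For the endothelial gate these were 32 and 22 at the threshold and 37 and 35 below it. The macrophage gate (5 and 7 at, 2 and 7 below) and the B gate (2 and 0 at, 6 and 11 below) had few edge barcodes. In the WT HFD and KO HFD libraries 16 and 13 barcodes passed more than 1 gate, and the libraries shared 2 barcode sequences.

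A gene was measured in a gate when it had at least 50 CPM in 1 of the 2 HFD libraries, and called when the 2 levels differed by at least 1.5-fold. The markers that defined the gates were left out. Of 2536 genes measured in the muscle stem gate, 40 were higher (1.58%) and 38 lower (1.5%) in KO HFD, together 3.08%. In the endothelial gate 54 of 3266 were higher (1.65%) and 105 lower (3.21%), together 4.87%. The macrophage gate had 44 of 2454 higher (1.79%) and 68 lower (2.77%), together 4.56%. The B gate had 52 of 2173 higher (2.39%) and 169 lower (7.78%), together 10.2%. In the first 3 gates between 70.5% and 78.0% of the measured genes lay within 1.2-fold, against 56.4% in the B gate. The B gate had the fewest UMIs, 1480562 in WT HFD and 787618 in KO HFD, and 13 of its 221 called genes had counting intervals that included no difference. The balance of higher and lower depended on the scaling. With TMM scaling, which sets the trimmed mean of the gene ratios to 0, the higher share of called genes was 75.6% in place of 51.3% in the muscle stem gate, 44.7% in place of 34.0% in the endothelial gate and 47.4% in place of 23.5% in the B gate. Centring on the median gene gave 62.5% in the muscle stem gate and 52.1% in the B gate, and leaving immunoglobulin genes out of the totals gave 45.1% in the B gate. Other changes went down. Totals without genes over 1% of UMIs gave 46.1% in the muscle stem and 27.9% in the endothelial gate, but 38.7% in the B gate. In the macrophage gate TMM scaling gave 36.8% and centring 32.8% in place of 39.3%. For scale, the diet comparison in WT mice, which shares the WT HFD library, called 16, 9.09, 7.53 and 21.8% of the genes in the muscle stem, endothelial, macrophage and B gates. Between the genotypes the *Pdgfra*-positive barcodes, the FAP side of the libraries, had 0.961% of 2914 genes called. They numbered 1886 in WT HFD and 2282 in KO HFD, many more than in any gate. Sums over fewer barcodes scatter more around a fixed fold, so this share and those of the gates were not compared at equal depth.

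**Figure D1:**
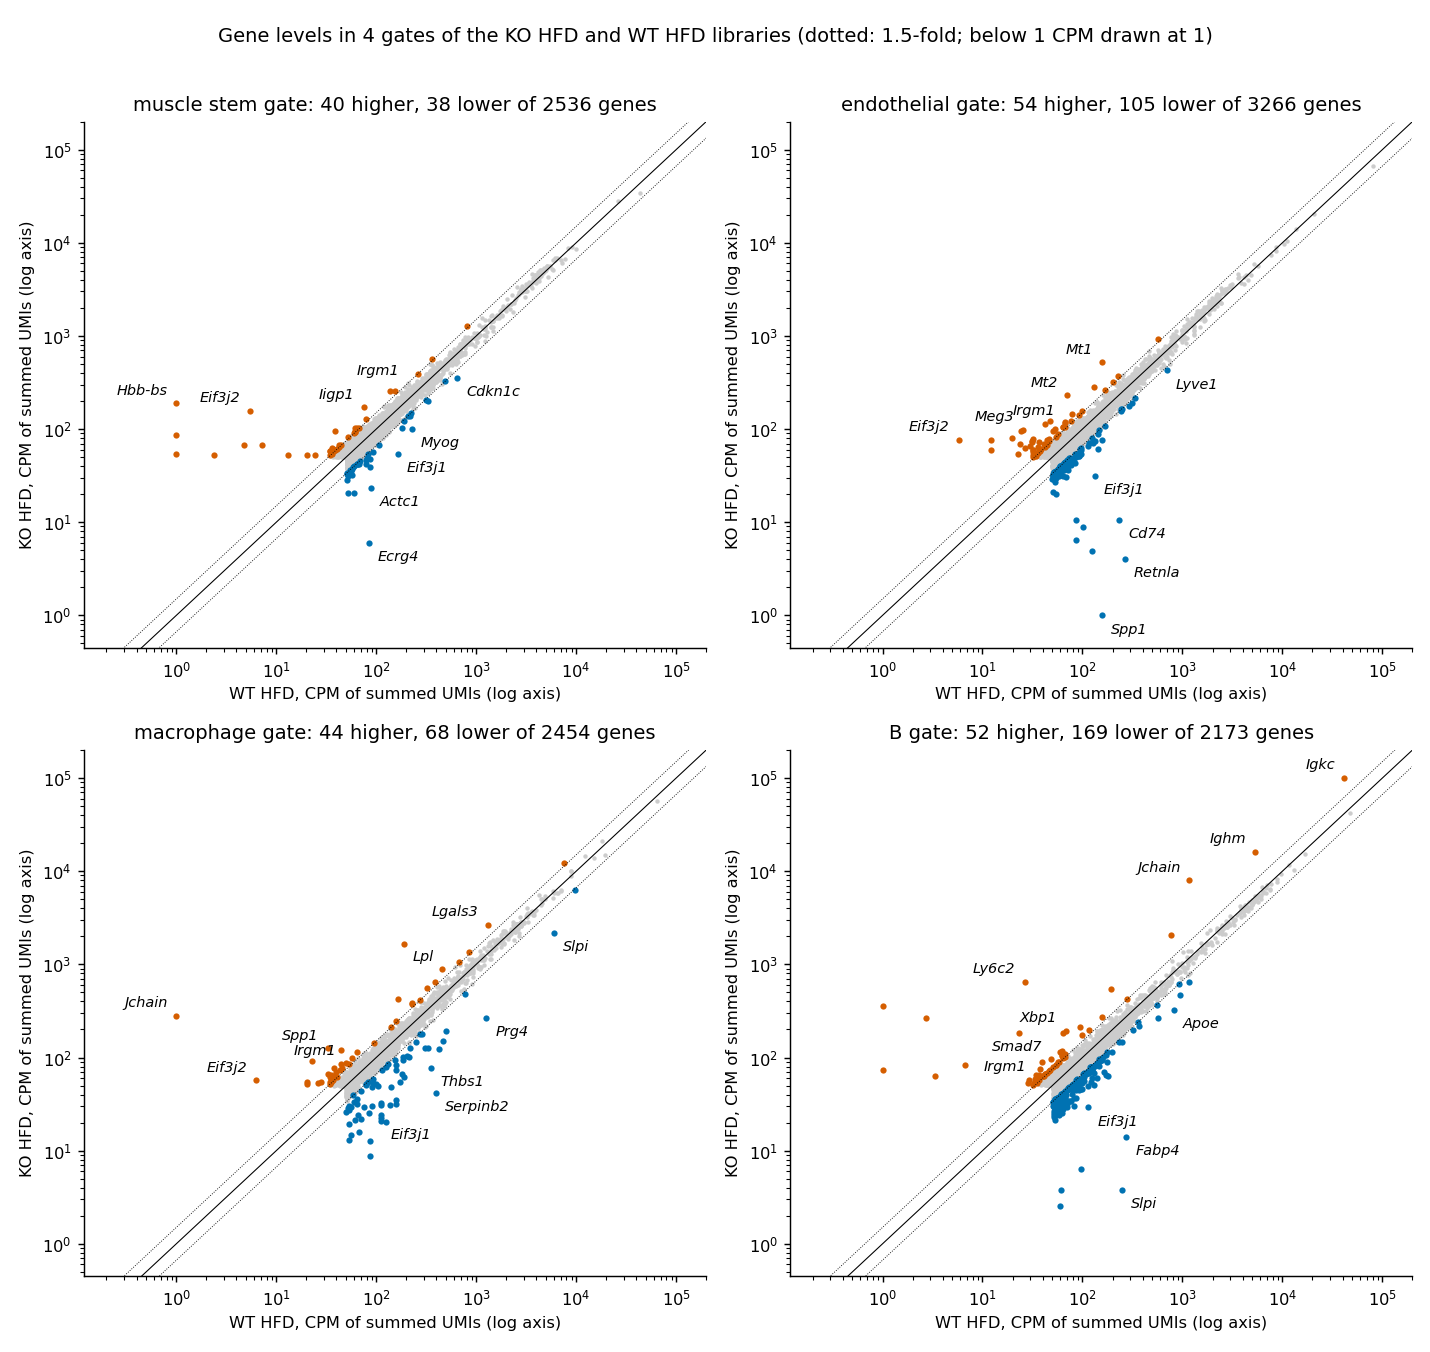
Each point is a gene, with its CPM in the WT HFD library on the horizontal log axis and in the KO HFD library on the vertical log axis, 1 panel for each gate. Orange genes were at least 1.5-fold higher and blue genes at least 1.5-fold lower in KO HFD, grey genes were within that fold, and levels under 1 CPM are drawn at 1. Most genes lie on the diagonal, and *Eif3j1* is below it in all 4 panels.

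Single barcodes carried many of the most extreme values. Leaving out, for each gene, the barcode with the most UMIs of it in each library kept 52 of 78 calls in the muscle stem gate, 116 of 159 in the endothelial gate, 92 of 112 in the macrophage gate and 175 of 221 in the B gate. In 8, 15, 6 and 9 called genes 1 barcode held over 50% of the UMIs in the library with the higher level. The UMIs in that barcode, or the ratio without it, are therefore given beside several of these genes.

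**Figure D2:**
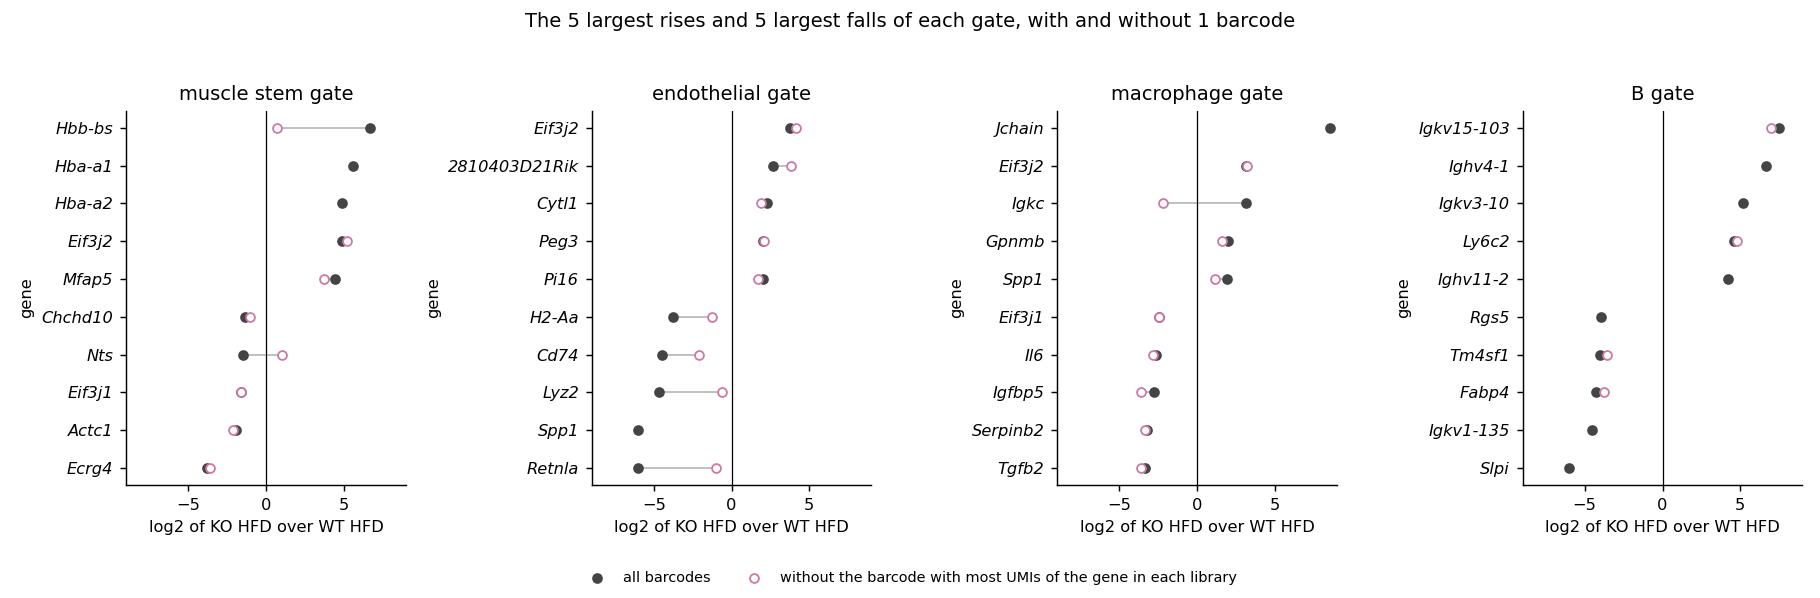
The log2 ratio of KO HFD to WT HFD CPM for the 5 largest rises and 5 largest falls of each gate (filled points), and the same after leaving out the barcode with the most UMIs of that gene in each library (open points). *Hbb-bs* in the muscle stem gate, *Igkc* in the macrophage gate and *Retnla* in the endothelial gate moved most, and no open point is drawn where both libraries were then at or under 3 UMIs.

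Across gates, 1 gene was lower in all 4 and none was higher, of 1379 genes measured in all 4 gates (0.0725% lower and 0% higher). A further 2 genes, *Eif3j2* and *Irgm1*, were higher in 3 gates, 0.106% of the 1887 genes measured in at least 3. Another 2, *Cxcl2* and *Retnla*, were called in 3 gates in mixed directions. In 2 gates 35 genes were called, of which 14 were higher in both, 9 lower in both and 12 opposite, and 484 genes were called in a single gate. The gates came from the same 2 libraries, so they are not independent of each other. *Retnla*, a marker of alternatively activated macrophages, had 7547 CPM in WT HFD and 12275 CPM in KO HFD in the macrophage gate (log2 ratio 0.70), in 160 and 176 barcodes. In the B gate it had 775 and 2068 CPM in only 12 and 6 barcodes, and the ratio turned to -4.47 without doublets and barcodes that passed more than 1 gate. *Cxcl2*, a neutrophil chemokine gene, had 192 and 545 CPM in the B gate in 14 and 5 barcodes.

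The gene that was lower in every gate was *Eif3j1* (ENSMUSG00000027236), which encodes a subunit of the translation initiation factor eIF3 and lies at chr2:122028546-122056598 (GRCm38). In the muscle stem gate its level was 193 CPM in WT CD, 164 CPM in WT HFD and 54.3 CPM in KO HFD, a log2 ratio of KO HFD to WT HFD of -1.60 (-1.88 to -1.31). In the endothelial gate it was 119, 133 and 31.6 CPM (-2.07, -2.60 to -1.57). The macrophage gate gave 101, 112 and 21.03 CPM (-2.42, -2.77 to -2.08) and the B gate 83.6, 115 and 29.2 CPM (-1.98, -2.67 to -1.34). In each gate the KO HFD library was the low one and the counting intervals of KO HFD and of both WT libraries did not overlap. *Pdgfra*-positive barcodes had the same order, 101 CPM in WT HFD and 25.3 CPM in KO HFD.

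*Eif3j2* (ENSMUSG00000043424), a near-identical copy of *Eif3j1* on another chromosome, moved the opposite way. Its level in WT CD, WT HFD and KO HFD was 4.51, 5.41 and 157 CPM in the muscle stem gate, a log2 ratio of 4.86 (3.92 to 6.00). It was 4.69, 5.76 and 77.0 CPM in the endothelial gate (3.74), 3.33, 6.32 and 56.8 CPM in the macrophage gate (3.17) and 2.43, 2.70 and 47.0 CPM in the B gate (4.12), where it stayed under the 50 CPM limit. The 2379 bases of its transcript aligned to the longest *Eif3j1* transcript with 4 mismatches and 10 gap columns, an identity of 99.4%. Reads of such a pair may be assigned to either copy, so the level of each alone is uncertain.

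*Eif3j2* held 3.19% of the summed *Eif3j1* and *Eif3j2* UMIs in WT HFD and 74.3% in KO HFD in the muscle stem gate. In the endothelial gate this went from 4.17 to 70.9%, in the macrophage gate from 5.32 to 73.0% and in the B gate from 2.30 to 61.7%. The sum of both copies differed less than either copy alone. It was 170 CPM in WT HFD and 212 CPM in KO HFD in the muscle stem gate, but 138 and 109 CPM in the endothelial gate, 119 and 77.8 CPM in the macrophage gate and 118 and 76.2 CPM in the B gate. The KO HFD sum was thus the higher one in 1 gate and the lower one in 3. In the endothelial gate alone the counting intervals of the sums overlapped (121 to 157 CPM in WT HFD and 91.0 to 129 CPM in KO HFD).

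*Irgm1* (ENSMUSG00000046879, chr11:48861968-48871683), an interferon-inducible GTPase of the response to intracellular pathogens, was higher in KO HFD in 3 gates and close to the limit in the fourth. In the macrophage gate its level was 88.4 CPM in WT CD, 49.3 CPM in WT HFD and 86.5 CPM in KO HFD (log2 ratio 0.81, 0.56 to 1.07). In the endothelial gate it was 101, 66.3 and 115 CPM (0.80, 0.43 to 1.16) and in the B gate 50.7, 33.8 and 58.4 CPM (0.79, 0.18 to 1.40). The muscle stem gate had 219, 210 and 311 CPM (0.57, 0.39 to 0.75), just under 1.5-fold. The WT HFD library was the lowest of the 3 in every gate, within the counting intervals of WT CD in the muscle stem gate. The intervals of WT CD and KO HFD overlapped in the endothelial, macrophage and B gates, but not in the muscle stem gate. *Pdgfra*-positive barcodes had 60.4 CPM in WT HFD and 93.2 CPM in KO HFD (0.63). In the macrophage gate without its cavity-type barcodes, described further on, the log2 ratio was 0.58, just under the limit.

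**Figure D3:**
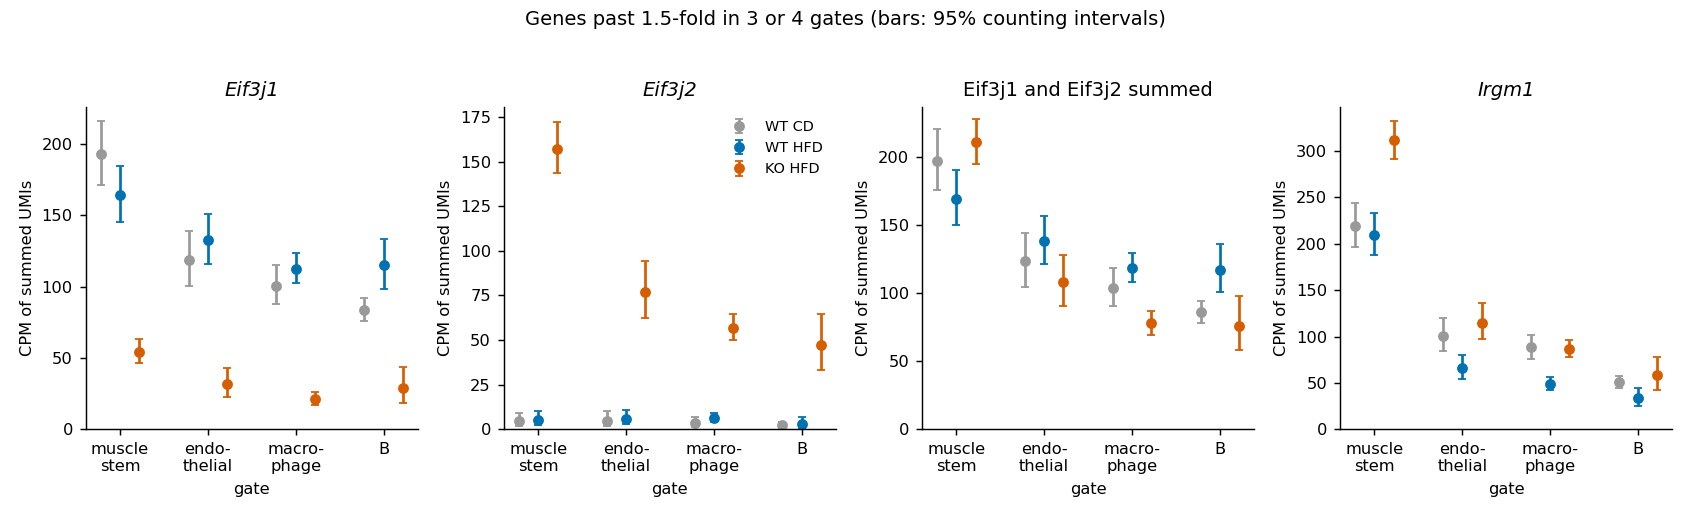
CPM of *Eif3j1*, *Eif3j2*, their sum and *Irgm1* in each gate (horizontal) for the WT CD (grey), WT HFD (blue) and KO HFD (orange) libraries, with 95% counting intervals as bars. *Eif3j1* is lowest and *Eif3j2* highest in KO HFD in every gate, and *Irgm1* is lowest in WT HFD.

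The promoter of *Irgm1* is shown because the gene was higher in KO HFD in several gates at once. It spans chr11:48871391-48871670 on the minus strand (GRCm38.p6, RefSeq), from 250 bases before the start to 30 after it, and is written 5′ to 3′. The GENCODE gene model given above starts further upstream, so this window lies inside that model. The letters GAAA, 2 bases of any kind and GAAA again, the core of the interferon-stimulated response element, were searched on both strands and matched at 2 places that overlap each other, both in capitals.
Irgm1: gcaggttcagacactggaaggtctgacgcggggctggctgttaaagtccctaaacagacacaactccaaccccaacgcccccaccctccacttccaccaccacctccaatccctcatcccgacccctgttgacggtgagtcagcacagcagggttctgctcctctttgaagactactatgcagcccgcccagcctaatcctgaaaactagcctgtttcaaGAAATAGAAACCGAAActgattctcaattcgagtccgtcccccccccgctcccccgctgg
Among 32541 different promoter sequences of the same 280 bases, 3.28% held this motif. TTCNNNGAA, the gamma-activated sequence, was not found in this window, and 7.86% of the promoters held it. A match describes letters in the window and is no evidence of binding.

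Of the interferon response genes, *Irgm1* was the only one called of 18 measured in the endothelial gate, and the only one of 7 in the macrophage gate and in the B gate, where 4.87, 4.56 and 10.2% of all genes were called. In the muscle stem gate 1 of 6 was called, against 3.08% of all genes, *Iigp1*, another interferon-inducible GTPase. Its level there was 75.4 CPM in WT CD, 75.2 CPM in WT HFD and 172 CPM in KO HFD (2.29-fold, log2 interval 0.91 to 1.49), found in 38 of 260 WT HFD and 116 of 436 KO HFD barcodes. The endothelial gate had 199 CPM in WT HFD and 233 CPM in KO HFD of *Iigp1* (0.22). The median log2 ratio of the measured interferon genes was 0.14, 0.20, 0.03 and -0.08 in the muscle stem, endothelial, macrophage and B gates, where all measured genes had medians of -0.03, -0.03, 0.04 and -0.15.

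*Thbs1* itself (chr2:118111876-118127133) did not check the labels, because the 3′ tag can lie outside the deleted part. UMIs of *Thbs1* were present in every gate of the KO HFD library. The macrophage gate had 97.4 CPM in WT CD, 354 CPM in WT HFD and 77.4 CPM in KO HFD (log2 ratio -2.19, -2.37 to -2.02), the only call of *Thbs1*. There 71 of 378 WT HFD and 76 of 358 KO HFD barcodes had a UMI of it. The muscle stem gate had 19.99, 16.2 and 46.7 CPM, the endothelial gate 21.9, 32.3 and 47.0 CPM and the B gate 4.26, 1.35 and 24.1 CPM, all under 50 CPM. *Pdgfra*-positive barcodes had 196, 235 and 223 CPM. Without the cavity-type barcodes of the macrophage gate *Thbs1* was 27.0 CPM in WT HFD and 36.2 CPM in KO HFD (0.42), and within them it was lower in KO HFD (-0.89).

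Several other called genes lay close to *Thbs1* on chromosome 2. Of the genes measured within 5 Mb of it, 3 of 14 were called in the muscle stem gate (21.4%), 2 of 18 in the endothelial gate (11.1%), 3 of 15 in the macrophage gate (20%, *Thbs1* included) and 4 of 11 in the B gate (36.4%). Over all genes these shares were 3.08, 4.87, 4.56 and 10.2%. The window was chosen with these values known, and within 20 Mb the shares were smaller, at 10.5, 9.26, 8.11 and 26.9%. *Eif3j1* lies 3.92 Mb from *Thbs1* and was among them in every gate. *Actc1*, described further on, was the third in the muscle stem gate, and *Slc28a2*, a nucleoside transporter gene, was the second in the endothelial gate (57.1 and 87.5 CPM, 0.62). *Ehd4*, an endosomal trafficking ATPase 2 Mb away, had 20.4 CPM in WT HFD and 53.0 CPM in KO HFD in the muscle stem gate (log2 ratio 1.37) and 62.8 and 105 CPM in the B gate (0.75). The other two of the B gate were *Zfp106* (172 and 64.8 CPM, -1.41) and *Oip5os1* (62.1 and 25.4 CPM, -1.29), both lower, which had 69.0 and 73.7 CPM and 77.1 and 61.1 CPM in the *Pdgfra*-positive barcodes. *Gatm*, the first enzyme of creatine synthesis 4.48 Mb away, had 44.2 CPM in WT HFD and 119 CPM in KO HFD in the macrophage gate (1.43), in 100 and 211 barcodes. In the *Pdgfra*-positive barcodes *Ehd4* had 34.1 and 43.4 CPM and *Gatm* 2.29 and 8.16 CPM. The effect of the missing gene and that of the neighbouring DNA that came with the allele cannot be told apart in these libraries.

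In the muscle stem gate the 5 largest falls were *Ecrg4*, *Actc1*, *Eif3j1*, *Nts* and *Chchd10*, of which *Eif3j1* was spread over 147 WT HFD and 126 KO HFD barcodes. *Ecrg4*, which encodes a secreted peptide precursor, had 12.2 CPM in WT CD, 84.2 CPM in WT HFD and 5.96 CPM in KO HFD (log2 ratio -3.82, -4.62 to -3.11), in 19 WT HFD and 10 KO HFD barcodes. The WT HFD library was the high one, and without the top barcodes the ratio was -3.62. *Actc1*, the cardiac actin of early myofibers, had 0, 88.4 and 23.2 CPM (-1.93) in only 4 and 5 barcodes of the HFD libraries. *Chchd10*, a mitochondrial protein gene, had 12.9, 51.7 and 20.5 CPM (-1.33, -1.03 without the top barcodes). *Nts*, the neurotensin gene, had 59.5 CPM in WT HFD and 20.9 CPM in KO HFD, but 95 of the 99 WT HFD UMIs were in 1 barcode and the ratio without the top barcodes was 1.05.

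Of 4 measured genes of myogenic activation, 2 were lower in KO HFD, against 1.5% lower over all genes of the gate. *Myog*, the transcription factor of myoblast differentiation, had 0.645 CPM in WT CD, 227 CPM in WT HFD and 100 CPM in KO HFD (log2 ratio -1.18, -1.40 to -0.96). Only 7 of 260 WT HFD barcodes (2.69%, 1.09 to 5.47) and 9 of 436 KO HFD barcodes (2.06%, 0.948 to 3.88) held it. As a background for such a share, 1 of 378 WT HFD and 0 of 358 KO HFD macrophage barcodes (upper limit 1.03%) held *Myog*, at median depths of 9110 and 8385 UMIs against 5582.5 and 5912 in the muscle stem gate. The share of *Myog*-positive barcodes overlapped between the genotypes within counting error. *Cdkn1c*, the cell cycle inhibitor p57, had 30.3, 645 and 355 CPM (-0.86, -0.98 to -0.74) in 36 WT HFD and 68 KO HFD barcodes. *Myod1* (179 and 200 CPM) and *Cdkn1a* (546 and 540 CPM) were not called. Cycling genes had 2 lower of 5 measured, against the same 1.5%, *Stmn1* (328 and 200 CPM) and *Birc5* (57.1 and 32.4 CPM), and 1 of them without the top barcodes. Both libraries on HFD stood above WT CD for *Myog*, *Cdkn1c*, *Stmn1* and *Birc5*.

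Myofiber markers, which mark RNA of broken fibers or of fused cells, had 3 lower of 7 measured (*Acta1*, *Ckm* and *Mylpf*), against 1.5% over all genes. Their sum over all 15 members was 379 CPM in WT CD, 748 CPM in WT HFD and 519 CPM in KO HFD, with *Acta1* as the most abundant (209 and 139 CPM in the HFD libraries). Without the top barcodes none of the 7 was called, *Mylpf* because it fell under 50 CPM in both libraries (log2 ratio -0.77). *Ucp2*, the only one of 10 fatty acid response genes called (3.08% over all genes), had 12.9, 87.2 and 39.1 CPM (log2 ratio -1.16, -1.52 to -0.80), spread over 82 WT HFD and 81 KO HFD barcodes. The part of the myofiber RNA in the other values was not tested.

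Apart from *Eif3j2*, which was spread over 240 KO HFD barcodes, the 5 largest rises of the muscle stem gate were in genes of other cell types and in few barcodes. *Hbb-bs*, *Hba-a1* and *Hba-a2*, the hemoglobin genes, had no UMI in WT HFD and 189, 85.4 and 54.3 CPM in KO HFD, at least 105-, 47.3- and 30.1-fold higher against a floor of 3 counts in the library. In each of them 1 barcode held nearly all of the UMIs (561 of 570 for *Hbb-bs*, whose log2 ratio against that floor was 0.72 without it). *Mfap5* (2.40 and 53.0 CPM) and *Pi16* (4.81 and 68.2 CPM) are genes of connective tissue progenitors, and 89 of 160 and 116 of 206 KO HFD UMIs came from 1 barcode each. Their log2 ratios were 3.70 and 2.82 without the top barcodes, and turned to -0.82 and -0.49 without barcodes of at least 10 collagen and *Dcn* UMIs. *Lyz2*, the macrophage lysozyme gene, had 109 of its 204 KO HFD UMIs in 1 barcode, and a ratio of 2.39 without the top barcodes. Erythroid markers as a list summed to 0 CPM in WT HFD and 333 CPM in KO HFD, Schwann cell markers to 3.61 and 56.9 CPM, macrophage markers to 19.8 and 86.1 CPM and FAP markers to 1804 and 1885 CPM. *Hbb-bs*, *Lyz2* and *Gsn* were the most abundant genes of the erythroid, macrophage and FAP lists. Without the collagen-rich barcodes the gate had 32 genes higher and 47 lower in place of 40 and 38. The part of the erythroid, Schwann cell and macrophage RNA in the other values was not tested.

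Other higher genes were spread over more barcodes. *Ccl2*, a monocyte chemokine gene, had 229 CPM in WT CD, 137 CPM in WT HFD and 257 CPM in KO HFD (log2 ratio 0.90, 0.69 to 1.12). *Ccl11*, the eotaxin gene, had 255, 155 and 257 CPM (0.73). For both, the WT HFD library was the lowest of the 3 and the ratio was larger without the top barcodes (0.98 and 0.86). *Vegfa*, the vascular growth factor gene, had 27.7, 24.7 and 52.6 CPM (1.09, 0.59 to 1.63) in 35 WT HFD and 107 KO HFD barcodes. *Cxcl2* was also called, but 143 of its 160 KO HFD UMIs lay in 1 barcode. Of the 24 immediate early genes, which respond within minutes and also to tissue digestion, *Nr4a2* was higher and *Klf2* lower, where 3.08% of all genes were called. None of 11 measured TGF-β target genes and none of 5 genes of TGF-β ligands, receptors and Smads was called (median log2 ratios -0.08 and 0.05).

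In the endothelial gate 8 genes were past 2-fold higher and within 1.2-fold in the other gates where they were measured, and the 5 with the largest ratios were *Peg3*, *Meg3*, *Mt2*, *Mt1* and *Gpx3*. *Mt1* and *Mt2* encode the metallothioneins, small metal-binding proteins. *Mt1* had 74.3 CPM in WT CD, 158 CPM in WT HFD and 522 CPM in KO HFD (log2 ratio 1.72, 1.52 to 1.93), and *Mt2* had 32.8, 69.7 and 233 CPM (1.74, 1.43 to 2.06). *Mt1* had ratios of 0.03, 0.00 and -0.18 in the muscle stem, macrophage and B gates. A UMI of *Mt1* was present in 66 of 351 WT HFD barcodes (18.8%) and 50 of 269 KO HFD barcodes (18.6%). With barcodes thinned to 2000 UMIs, leaving out 38 WT HFD and 37 KO HFD barcodes that were shallower, these shares were 12.1 and 15.9%. The share of endothelial barcodes with *Mt1* was thus alike within counting error while the summed level was not, and 149 of the 644 KO HFD UMIs were in 1 barcode.

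Muscle stem genes were also present in the endothelial gate, and their part in these values was not tested. Muscle stem markers summed to 192 CPM in the WT HFD and 352 CPM in the KO HFD endothelial gate, with *Sdc4* and *Vcam1* called higher of 3 measured, against 1.65% higher over all genes. Levels of *Mt1*, *Meg3*, *Peg3* and *Gpx3* in WT HFD were 4667, 1350, 711 and 1272 CPM in the muscle stem gate. Without doublets and barcodes that passed more than 1 gate, which left 342 WT HFD and 259 KO HFD barcodes, *Mt1* was 123 and 189 CPM (0.62), still past 1.5-fold, and *Mt2* 50.7 and 71.4 CPM (0.49). That removal was not limited to barcodes with muscle stem genes. In the same barcodes *Meg3* was 5.50 and 17.0 CPM, *Peg3* 10.38 and 19.6 CPM and *Sdc4* 21.4 and 13.4 CPM, all under 50 CPM, while *Vcam1* kept 41.5 and 117 CPM (1.49). Without lymphatic-type barcodes, described next, *Mt1* was 154 and 559 CPM (1.86).

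Of 7 measured lymphatic endothelial markers 2 were lower in the KO HFD endothelial gate, against 3.21% lower over all its genes. *Lyve1*, the hyaluronan receptor gene of lymphatic vessels, had 174 CPM in WT CD, 695 CPM in WT HFD and 426 CPM in KO HFD (log2 ratio -0.70, -0.86 to -0.56). *Prox1*, the transcription factor of lymphatic identity, had 119, 250 and 165 CPM (-0.59, -0.84 to -0.35). *Mmrn1* (744 and 497 CPM, -0.58), *Flt4* (206 and 164 CPM, -0.33), *Reln* (172 and 155 CPM, -0.16) and *Ccl21a* (4104 and 3568 CPM, -0.20) were not called. Barcodes with at least 2 UMIs of *Prox1*, *Mmrn1* and *Lyve1*, called lymphatic-type here, made up 10.7% of the WT CD, 22.8% (18.5 to 27.5) of the WT HFD and 15.2% (11.2 to 20.1) of the KO HFD gate. A summed level alone does not separate fewer cells of a type from less RNA per cell. The WT HFD and KO HFD gates held 80 and 41 lymphatic-type barcodes. *Lyve1* had 1205 and 526 UMIs in the whole gate, of which 0 and 1 lay outside these barcodes. *Mmrn1* had 1291 and 614, of which 0 and 0 lay outside. Both genes define these barcodes, so few of their UMIs could lie outside, and these counts do not show where the fall lies. *Ednrb*, the endothelin B receptor gene, had 156 CPM in WT HFD and 77.0 CPM in KO HFD (-1.02). Without lymphatic-type barcodes it differed by less than counting error (48.0 and 48.4 CPM).

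Among the venous markers, *Vwf*, the von Willebrand factor gene, had 151 CPM in WT CD, 293 CPM in WT HFD and 179 CPM in KO HFD (log2 ratio -0.71, -0.94 to -0.48). *Lrg1* had 167, 333 and 217 CPM (-0.62). Without lymphatic-type barcodes the ratios were -0.96 and -1.06, so both stayed lower in KO HFD among the remaining barcodes. *Vcam1*, an adhesion receptor gene, was called higher (47.3 and 122 CPM), but 79 of its 151 KO HFD UMIs were in 1 barcode and the ratio without the top barcodes was 0.43. None of the 8 blood endothelial, 7 capillary and 7 arterial markers was called, where 4.87% of all genes of the gate were. Their median log2 ratios were -0.06, -0.12 and 0.31. Without the top barcodes 1 capillary marker was called, lower.

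The largest falls of the endothelial gate were in genes best known from macrophages and antigen-presenting cells. *Retnla* had 266 CPM in WT HFD and 4.05 CPM in KO HFD, with 451 of the 462 WT HFD UMIs in 1 barcode and a log2 ratio of -0.97 without the top barcodes. *Spp1* had 157 CPM and no UMI, with all 273 WT HFD UMIs in 1 barcode. *Cd74*, *H2-Aa*, *H2-Eb1* and *H2-Ab1*, the MHC class II genes, were 4 of 7 measured MHC genes and all lower, against 3.21% over all genes, for example *Cd74* with 234 and 10.5 CPM (log2 ratio -4.47). Here 347 of 406 WT HFD *Cd74* UMIs were in 1 barcode, and without lymphatic-type barcodes and barcodes with at least 2 UMIs of *Cd74* or *Lyz2* (5 in WT HFD and 2 in KO HFD) the ratio was 0.50. Without doublets and barcodes that passed more than 1 gate it was 0.25. *Slc41a1*, a magnesium transporter gene, had 50.7 and 21.1 CPM (-1.27), and 31 of its 88 WT HFD UMIs were in 1 barcode. *Myh11* and *Acta2*, mural cell genes, were called in opposite directions, and mural markers summed to 450 CPM in WT HFD and 533 CPM in KO HFD. No mural marker was called without the top barcodes.

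Of the remaining endothelial genes, *Hspa1a*, an inducible heat shock chaperone gene, had 1563 CPM in WT CD, 575 CPM in WT HFD and 916 CPM in KO HFD (log2 ratio 0.67, 0.55 to 0.80). It was the only one called of 13 measured chaperones, where 4.87% of all genes were called. *Egr3* (46.1 and 75.3 CPM) and *Myc* (26.5 and 63.2 CPM) were higher of 22 immediate early genes, against 1.65% higher over all genes. Without the top barcodes 1 immediate early gene was higher. *Gkn3*, a marker of arterial endothelium, had 23.6 and 68.9 CPM (1.54), and 75.9 CPM in KO HFD without the doublets and double-gate barcodes. *2810403D21Rik* had 12.1 and 76.2 CPM (2.65) in 7 and 9 barcodes, and *Cytl1* 12.1 and 60.0 CPM (2.31) in 7 and 13. *Pi16* had 24.2 and 96.4 CPM (1.99), with 64 of 119 KO HFD UMIs in 1 barcode, while FAP markers summed to 924 and 1067 CPM. Of 7 measured FAP markers 4 were called, against 4.87% of all genes, *Gsn* (130 and 284 CPM) and *Mfap5* (31.1 and 75.3 CPM) higher and *Col1a2* (53.6 and 26.7 CPM) and *Col3a1* (91.6 and 51.8 CPM) lower. Without the top barcodes 1 FAP marker was higher and 1 lower. None of 12 TGF-β targets and none of 8 ligands, receptors and Smads was called.

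In the macrophage gate 3 of 4 measured markers of cavity macrophages, which live in the serous spaces that the diaphragm borders, were lower, against 2.77% lower over all genes of the gate. *Prg4*, the lubricin gene, had 148 CPM in WT CD, 1264 CPM in WT HFD and 264 CPM in KO HFD (log2 ratio -2.26, -2.36 to -2.17). *Alox15*, a lipoxygenase gene, had 96.0, 421 and 123 CPM (-1.78) and *Icam2*, an adhesion molecule gene, 34.2, 191 and 61.9 CPM (-1.63). *Serpinb2*, the gene of plasminogen activator inhibitor 2, had 31.4, 397 and 42.1 CPM (-3.24), *Slpi*, a protease inhibitor gene, 702, 6047 and 2179 CPM (-1.47) and *Selp*, the P-selectin gene, 8.08, 67.7 and 16.0 CPM (-2.09). In all 6 genes the WT HFD library stood far above the others.

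Barcodes with at least 2 UMIs of *Prg4* and *Alox15* together, called cavity-type here, numbered 9 of 188 in WT CD, 56 of 378 in WT HFD (14.8%, 11.4 to 18.8) and 14 of 358 in KO HFD (3.91%, 2.15 to 6.47). Resident-type barcodes, with at least 2 UMIs of *Folr2*, *Cd163* and *Lyve1*, made up 46.3, 50.8 and 52.5%. A barcode could be of both types. Resident-type barcodes held 5 WT HFD and 189 KO HFD UMIs of *Prg4*, against 1 and 2 in all barcodes that were not cavity-type. Inside the 56 and 14 cavity-type barcodes of the HFD libraries, *Prg4*, which defines them, had 5882 CPM in WT HFD and 5114 CPM in KO HFD. *Icam2* (871 and 1088 CPM), *Selp* (312 and 291 CPM) and *Ltbp1* (516 and 450 CPM) were alike or close there. *Serpinb2*, in contrast, had 1834 CPM in WT HFD and 755 CPM in KO HFD within the cavity-type barcodes (log2 ratio -1.28, -1.52 to -1.04), and *Thbs1* had 1547 and 835 CPM (-0.89, -1.12 to -0.66). Without cavity-type barcodes, 61 genes of the gate were called in place of 112, 36 higher and 25 lower in place of 44 and 68, and resident-type barcodes alone had 76 higher and 29 lower. Of 7 measured resident markers 1 was called, lower, against 2.77% lower over all genes of the gate. It was *Timd4*, a phosphatidylserine receptor gene, with 61.7 CPM in WT HFD and 21.3 CPM in KO HFD (-1.54, -1.90 to -1.18) in 88 and 48 barcodes. In resident-type barcodes only, *Timd4* had 58.4 and 40.2 CPM (-0.54), under the limit. Without cavity-type barcodes it had 31.2 and 19.1 CPM (-0.71), and within them 173 and 61.0 CPM (-1.50).

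A TGF-β ligand gene and a latency protein gene were lower in the macrophage gate. *Tgfb2* had 14.7 CPM in WT CD, 87.2 CPM in WT HFD and 8.70 CPM in KO HFD (log2 ratio -3.32, -3.86 to -2.83) and *Ltbp1*, which holds latent TGF-β in the matrix, 17.6, 111 and 24.2 CPM (-2.21, -2.53 to -1.89). They were the 2 called of 4 measured genes of ligands, receptors and Smads, against 2.77% lower over all genes of the gate, while *Tgfb1* had 178 and 194 CPM. Without cavity-type barcodes *Tgfb2* was 3.22 and 1.53 CPM and *Ltbp1* 0.644 and 1.02 CPM. Within cavity-type barcodes *Tgfb2* was also lower in KO HFD (394 and 141 CPM, -1.49, -2.08 to -0.94). Among 8 measured TGF-β targets, *Ccn1* alone was called, higher in KO HFD (20.5 and 54.1 CPM, 1.40), and the median of the targets was 0.00 on the log2 scale. Without the top barcodes no target was called.

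Of 14 measured NF-κB and inflammatory genes 6 were lower and none higher, against 2.77% lower over all genes of the gate. *Il6* had 40.9 CPM in WT CD, 126 CPM in WT HFD and 20.5 CPM in KO HFD (log2 ratio -2.61, -2.96 to -2.28), and *Cxcl1*, a neutrophil chemokine gene, 171, 495 and 192 CPM (-1.37). *Cxcl2* had 4630, 9710 and 6288 CPM (-0.63), *Ccl3* 139, 219 and 125 CPM (-0.81), *Ptgs2*, the inducible cyclooxygenase gene, 62.2, 53.3 and 19.1 CPM (-1.48) and *Nlrp3*, the inflammasome sensor gene, 79.8, 156 and 73.7 CPM (-1.08). Without cavity-type barcodes *Cxcl1* was 123 CPM in WT HFD and 165 CPM in KO HFD (0.42), *Cxcl2* 5503 and 5824 CPM (0.08), *Nlrp3* 76.3 and 68.8 CPM (-0.15) and *Ptgs2* 11.6 and 18.4 CPM (0.66). *Ccl3* (192 and 113 CPM, -0.76) stayed lower in KO HFD among the other macrophages. *Il6* (22.2 and 11.7 CPM, -0.92) was lower there too, on 69 and 46 UMIs, but it and *Ptgs2* were then under the 50 CPM limit. Within cavity-type barcodes *Il6*, *Cxcl1*, *Cxcl2*, *Ptgs2* and *Nlrp3* had ratios of -1.46, -1.41, -0.76, -2.65 and -1.44, and *Ccl3* 0.12.

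**Figure D4:**
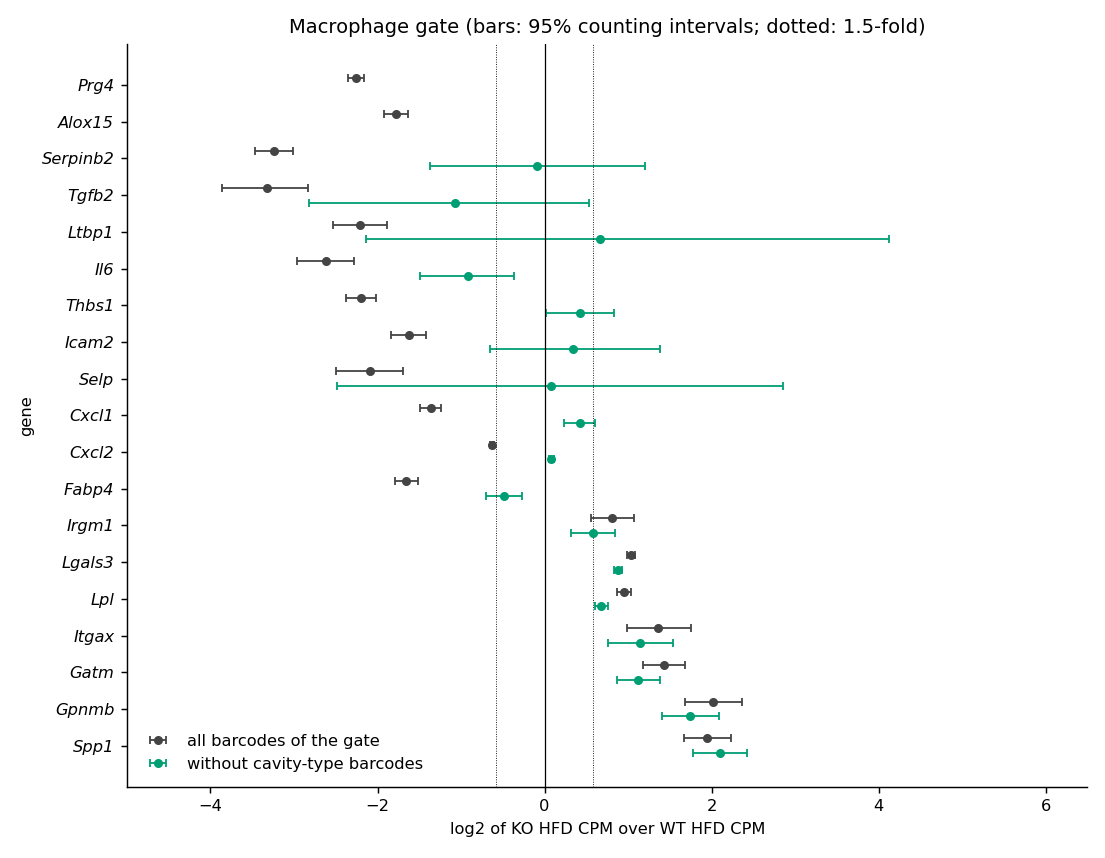
Log2 ratio of KO HFD to WT HFD CPM (horizontal) for genes of the macrophage gate, over all its barcodes (dark points) and without cavity-type barcodes (green points), with 95% counting intervals as bars and dotted lines at 1.5-fold. *Serpinb2*, *Thbs1*, *Cxcl1* and *Cxcl2* move from the left of the left dotted line to between the lines, while *Gpnmb*, *Spp1*, *Gatm*, *Itgax*, *Lgals3* and *Lpl* stay right of the right one. *Prg4* and *Alox15* have no green point because their UMIs define the barcodes left out.

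Genes of lipid-associated macrophages, which take up lipid in obese tissue and at sites of damage, had 4 of 8 measured called higher and none lower, against 1.79% higher over all genes of the gate. *Lgals3*, the galectin-3 gene, had 867 CPM in WT CD, 1303 CPM in WT HFD and 2667 CPM in KO HFD (log2 ratio 1.03, 0.99 to 1.08). *Lpl*, the lipoprotein lipase gene, had 368, 458 and 884 CPM (0.95, 0.87 to 1.03), in 138 WT HFD and 166 KO HFD barcodes. *Gpnmb*, a lysosomal glycoprotein gene, had 0.950, 23.0 and 92.8 CPM (2.01) and *Spp1*, the osteopontin gene, 7.13, 32.9 and 127 CPM (1.95). The KO HFD library was the highest of the 3 for all of them. *Gpnmb* and *Spp1* rested on fewer cells, 13 and 30 WT HFD and 21 and 45 KO HFD barcodes, and 199 of 384 and 305 of 524 KO HFD UMIs were in 1 barcode. Without the top barcodes their ratios were 1.58 and 1.17 and 3 of the 4 stayed called, since *Gpnmb* was then under 50 CPM, and without cavity-type barcodes all 4 stayed past 1.5-fold (*Lgals3* 0.88, *Lpl* 0.68, *Gpnmb* 1.74, *Spp1* 2.09). Without resident-type barcodes *Spp1* had a ratio of 0.55, under the limit, while *Lgals3* (0.90) and *Gpnmb* (2.51) stayed past it. *Trem2* (163 and 236 CPM, 0.54), *Cd9* (305 and 215 CPM, -0.51, -0.63 to -0.38), *Cd63* (443 and 487 CPM, 0.14) and *Fabp5* were not called. Without cavity-type barcodes *Cd9* had 151 and 181 CPM (0.26), and *Fabp5*, a fatty acid carrier gene, had 148 and 293 CPM (0.99). The sum over the 8 members was 1780, 2980 and 5007 CPM.

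*Itgax*, the gene of the integrin CD11c, had 20.2 CPM in WT HFD and 52.0 CPM in KO HFD (log2 ratio 1.36, 0.99 to 1.75) in 34 and 65 macrophage barcodes. *Hmox1*, the heme oxygenase gene, was the only one called of 5 NRF2 targets, where 4.56% of all genes were called (227 and 378 CPM, 0.73), but 416 of its 1564 KO HFD UMIs were in 1 barcode and the ratio was 0.42 without the top barcodes. Cycling genes had 3 higher of 5 measured, against 1.79% higher over all genes of the gate. *Top2a* had 39.2 and 69.6 CPM (0.83) in 25 and 28 barcodes, and *Birc5* had 32.6 and 67.2 CPM (1.04) in 23 barcodes of each library. *Fabp4*, the adipocyte-type fatty acid carrier gene, was lower with 468 and 149 CPM (-1.65), which became -0.49 without cavity-type barcodes. *Igfbp5* had 86.7 and 12.6 CPM (-2.79), with 179 of its 343 WT HFD UMIs in 1 barcode. The ratio was -3.61 without the top barcodes but turned to 1.09 without collagen-rich barcodes and to 1.57 in resident-type barcodes. *Dcn*, a FAP gene, had 53.8 and 13.1 CPM. *Jchain* (0 and 281 CPM, at least 371-fold higher) and *Igkc* (188 and 1664 CPM) are plasma cell genes, and 1163 of 1164 and 6761 of 6883 KO HFD UMIs lay in 1 barcode. No MHC gene of 9 and no immediate early gene of 20 was called.

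In the B gate plasma cell genes were among the 52 higher genes. *Jchain*, which joins antibody subunits, had 12190 CPM in WT CD, 1174 CPM in WT HFD and 8017 CPM in KO HFD (log2 ratio 2.77, 2.69 to 2.85). *Ighm*, the IgM heavy chain gene, had 5324 and 16156 CPM in the HFD libraries (1.60), *Igkc* 41324 and 100400 CPM (1.28) and *Xbp1*, the transcription factor of the secretory pathway, 68.9 and 194 CPM (2.82-fold). Plasma cell markers had 3 higher of 4 measured, against 2.39% higher over all genes of the gate. Without the top barcodes they had 2 higher and 1 lower, since *Prdm1* (0.69) became 0.38 and *Mzb1* (-0.57) became -1.02. Immunoglobulin genes and *Jchain* took 21.5% of the UMIs of the gate in WT CD, 5.11% in WT HFD and 12.7% in KO HFD. WT HFD was the low library of the 3, and the KO HFD library stood between it and WT CD.

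Few barcodes carried this difference. Plasma-type barcodes, with at least 5 UMIs of *Jchain*, numbered 84 of 424 in WT CD, 6 of 166 in WT HFD (3.61%, 1.34 to 7.70) and 8 of 97 in KO HFD (8.25%, 3.63 to 15.6). The 2 HFD shares overlapped within counting error. Without them immunoglobulin genes and *Jchain* took 1.39 and 1.31% of the UMIs, *Ighm* had 2305 and 2254 CPM (log2 ratio -0.03), *Igkc* 8953 and 9226 CPM (0.04) and *Xbp1* 42.7 and 52.9 CPM (0.31). *Ly6c2* (26.3 and 649 CPM, 4.62) was also a gene of these barcodes, with 1 and 2 UMIs left without them. *Igkv15-103* (no UMI and 358 CPM, at least 177-fold higher, 5 barcodes), *Ighv4-1*, *Igkv3-10* and *Ighv11-2* were variable segments in 1 to 5 KO HFD barcodes. *Igkv1-135*, lower in KO HFD, had 88 of 89 WT HFD UMIs in 1 barcode.

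Of 8 measured B cell markers 3 were lower and 1, *Ighm*, higher in the B gate, with a median log2 ratio of -0.03, against 7.78% lower and 2.39% higher over all genes. *Ms4a1*, the CD20 gene, had 927 CPM in WT HFD and 615 CPM in KO HFD (-0.59), *Cd22* 80.4 and 45.7 CPM (-0.81) and *Pax5*, the B lineage transcription factor, 88.5 and 57.1 CPM (-0.63). The median gene of the gate was -0.15 on the log2 scale and TMM scaling raised every log2 ratio by 0.134, which left *Cd22* past 1.5-fold and *Ms4a1* and *Pax5* within it. *Ighd*, the IgD heavy chain gene of mature B cells, had 89.2 and 126 CPM (0.50), and 98.8 and 169 CPM (0.77) without plasma-type barcodes. Without those barcodes the ratios of *Ms4a1*, *Cd22* and *Pax5* were -0.33, -0.54 and -0.35, under the limit. The lambda light chain genes *Iglc1*, *Iglc2* and *Iglc3* had ratios of -1.02, -0.83 and -1.10 and stayed lower without plasma-type barcodes (-0.91, -0.97 and -1.06). *Zbtb32*, the 1 called of 4 measured genes of B1 and memory-type B cells, had 52.0 and 22.9 CPM (-1.19), while the list had a median ratio of 0.01 and sums of 3688 and 3457 CPM. No gene of this list was called without the top barcodes. *Nfkbia*, an NF-κB inhibitor gene, had 279 and 425 CPM (0.61, 0.42 without the top barcodes), and of 6 measured inflammatory genes it and *Cxcl2* were higher and *Ccl2* lower.

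Of 5 measured TGF-β target genes 3 were higher in the B gate and none lower, against 2.39% higher over all genes of the gate. The other two were not called, *Id2* with 131 CPM in WT HFD and 132 CPM in KO HFD and *Tgif1* with 71.6 and 78.7 CPM, and the sum over all 16 members was 525 and 627 CPM. *Smad7*, the inhibitory Smad gene, had 44.8 CPM in WT CD, 48.6 CPM in WT HFD and 95.2 CPM in KO HFD (log2 ratio 0.97, 0.48 to 1.46), in 40 of 166 and 39 of 97 HFD barcodes. *Skil*, the gene of the Smad corepressor SnoN, had 87.0, 62.8 and 104 CPM (0.73, 0.28 to 1.17), and *Id3*, an inhibitor of helix-loop-helix factors, 34.5, 41.9 and 67.3 CPM (0.68, 0.13 to 1.24). Each rested on 53 to 93 UMIs a library, and 2 of the 3 stayed called without the top barcodes. Without plasma-type barcodes the ratios were 1.29, 1.01 and 0.96. *Rgcc*, a cell cycle regulator gene, had 147, 63.5 and 184 CPM (1.54) and was within 1.2-fold in the endothelial and macrophage gates. Neither of the 2 measured TGF-β pathway genes of the B gate was called.

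Of 12 measured chaperone genes 2 were lower in the B gate, against the same 7.78%, *Hspa1a* with 89.0 CPM in WT CD, 179 CPM in WT HFD and 63.5 CPM in KO HFD (log2 ratio -1.50) and *Hspa1b* with 69.4, 132 and 50.8 CPM (-1.37). *Fam43a* had 163 and 69.8 CPM in the HFD libraries (-1.23) and was present in 96 of 166 and 30 of 97 barcodes. *Apoe*, the apolipoprotein E gene, had 820 and 325 CPM (-1.33). *Fabp4* (274 and 13.97 CPM), *Tm4sf1*, *Cd36*, *Rgs5* and *Slpi* were also lower, and all of them are genes of endothelial, mural or macrophage cells. Of 3 measured macrophage markers *Mrc1* was lower (66.2 and 43.2 CPM). For *Slpi*, *Rgs5* and *Fabp4*, 366 of 369, 142 of 144 and 303 of 405 WT HFD UMIs lay in 1 barcode. Blood endothelial markers summed to 75.6 CPM in WT HFD and 3.81 CPM in KO HFD in the B gate, with *Cldn5* as the most abundant, mural markers to 161 and 16.5 CPM (*Rgs5*) and T or NK cell markers to 52.7 and 19.0 CPM (*Trac*). Their part in the other values of the gate was not tested.

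A total of 36 genes were past 2-fold in 1 gate and within 1.2-fold in every other gate where they were measured, 2 in the muscle stem gate, 12 in the endothelial gate, 6 in the macrophage gate and 16 in the B gate. *Lgals3* had 336 CPM in WT HFD and 339 CPM in KO HFD in the B gate, but 32.6 and 54.8 CPM (0.75) in the *Pdgfra*-positive barcodes. *Ltbp1* and *Itga6* were lower in the macrophage gate alone, and *Itga6*, a laminin-binding integrin gene, had 245 and 204 CPM in the endothelial gate. *Hist1h4d*, a histone gene, was higher in macrophages alone (26.0 and 53.9 CPM). Another 9, 5, 26 and 17 genes of the muscle stem, endothelial, macrophage and B gates were past 2-fold and measured in no other gate. That a gene was within 1.2-fold elsewhere compares fold limits, not a test of the difference between gates.

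**Figure D5:**
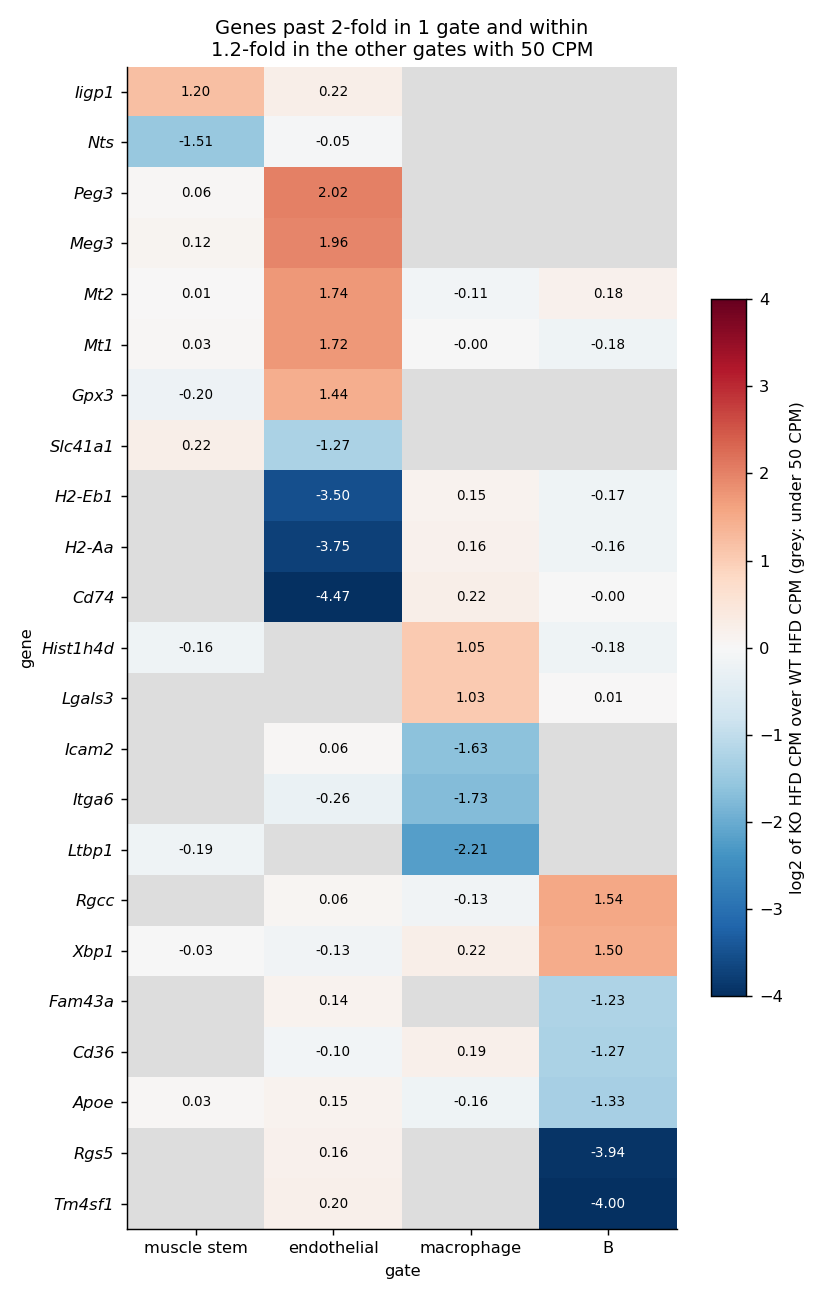
Log2 ratio of KO HFD to WT HFD CPM, printed in each cell and shown by color, for the genes reported as past 2-fold in 1 gate and within 1.2-fold in the other gates with at least 50 CPM. Grey cells are under 50 CPM in both libraries. *Mt1* and *Mt2* stand out in the endothelial column with all 4 gates measured, and their values shrink to 0.62 and 0.49 there without doublets and barcodes in more than 1 gate.

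Large groups of housekeeping genes gave few calls. Of the ribosomal protein genes 77, 77, 76 and 77 were measured in the muscle stem, endothelial, macrophage and B gates and none was called, with median log2 ratios of 0.08, 0.22, 0.03 and -0.09. Of nuclear oxidative phosphorylation genes 76, 78, 77 and 73 were measured, and only *Uqcrc1* and *Ndufs6* were called, lower in the B gate. None of 13, 13, 12 and 12 mitochondrially encoded genes was called. Sterol and lipid synthesis genes (1, 0, 0 and 1 measured) and clock genes (1, 1, 0 and 0 measured) were mostly under 50 CPM and none was called. Among thrombospondins and their receptors, *Cd47* and *Itgb1* were measured in all 4 gates and not called in any, and the calls among 5, 6, 9 and 6 measured in the muscle stem, endothelial, macrophage and B gates (3.08, 4.87, 4.56 and 10.2% over all genes) were *Sdc4* (endothelial, higher), *Thbs1* and *Itga6* (macrophage, lower) and *Cd36* (B, lower). Without doublets and double-gate barcodes *Sdc4* turned to -0.67, and without cavity-type barcodes *Thbs1* and *Itga6* were at 0.42 and 0.16.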

How the data were processed

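The authors aligned 10x Genomics 3′ libraries and deposited 1 filtered matrix of UMI counts per library, made with Cell Ranger 6.1.1 on mm10 per the submitters' processing notes. The counts were used as deposited, with 32285 genes and as many barcodes as the study's methods give cells, and 0 columns were left unused. Replicates were pooled before capture, so no test, SE or p-value between groups was possible.

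UMIs were summed over the barcodes of each gate and divided by their total (CPM). Intervals are exact Poisson limits for a level, exact conditional binomial limits for a ratio and exact Clopper-Pearson limits for a share, all at 95%, and a count of 0 entered a ratio as 3 counts. The 13 genes that defined the gates were left out. The text names *Thbs1*, genes called the same way in at least 3 gates, the 5 largest rises and falls of each gate and up to 5 genes a direction past 2-fold in 1 gate alone (55 genes in all, besides 1 that is not reported here), called members of gene lists other than some immunoglobulin segments, and genes within 5 Mb of *Thbs1*. *Ednrb*, *Itgax*, *Gkn3*, *Ccl11*, *Vegfa*, *Cxcl2* and *Retnla* outside the rule, the neighbours of *Thbs1* and the values by subclass were chosen after their values were seen. The members and lists were chosen with earlier results of these data known.

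Alternatives were TMM scaling, centring on the median gene, totals without abundant or immunoglobulin genes, floors of 10 and 100 CPM, a 2-fold limit, the mean of each cell's CPM, *Pdgfra*-positive barcodes kept, quality filters (at least 500 genes and at most 10% mitochondrial UMIs), raised gate thresholds, and removal of doublets (Scrublet, 1.09% of WT HFD and 1.33% of KO HFD barcodes), of collagen-rich barcodes and of subclasses. In the totals above, doublets were kept. The ratio and interval code was tested on simulated data. Gene positions came from GENCODE M21 (32235 genes matched) and the promoter from RefSeq.

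Tools were Python 3.11.15, numpy 2.4.6, scipy 1.17.1, pandas 2.3.3, scanpy 1.11.5, matplotlib 3.10.9, R 4.3.3 and edgeR 4.0.16, the last used for TMM factors alone.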

Additional observations from a re-analysis of the deposited data

Results flagged for a closer look

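Several genes were past 1.5-fold higher in 1 gate and past 1.5-fold lower in another, which is why they stand here. The difference between the gates was not tested, since each gate has 1 library a side, and each value is the gap between both log2 ratios of KO HFD to WT HFD.

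Chemokine genes were among them. *Cxcl1* had a gap of 2.27 (0.91 in the endothelial and -1.37 in the macrophage gate) and *Ccl2* of 2.09 (0.90 in the muscle stem and -1.19 in the B gate). The gap of *Cxcl2* was 2.63 (2.0 in the muscle stem and -0.63 in the macrophage gate), where 143 of 160 KO HFD muscle stem UMIs were in 1 barcode and the ratio without the top barcodes was -0.68.

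A pair of cell cycle genes was lower in the muscle stem gate and higher in the macrophage gate. Of 5 measured cycling genes 2 were lower in the muscle stem gate (1 without the top barcodes), against 1.5% over all genes. In the macrophage gate 3 of 5 were higher (3 without the top barcodes), against 1.79% over all genes. *Birc5* had a gap of 1.86 (1.04 in the macrophage and -0.82 in the muscle stem gate) and *Stmn1* of 1.31 (0.59 and -0.72).

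Genes of phagocytes gave the widest gaps, each with most of its UMIs in 1 barcode on at least 1 side. *Spp1* had a gap of 7.96 (1.95 in the macrophage and -6.02 in the endothelial gate, where all 273 WT HFD UMIs were in 1 barcode). *Lyz2* had 7.91 (3.23 in the muscle stem and -4.69 in the endothelial gate) and *Retnla* 7.46 (1.42 in the B and -6.04 in the endothelial gate).

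The others were *Hspa1a* with 2.17 (0.67 in the endothelial and -1.50 in the B gate), *Lpl* with 1.69 (0.95 in the macrophage and -0.74 in the B gate), *Sms* with 1.39 (0.76 and -0.63 in the same gates) and *Sars* with 1.30 (0.59 and -0.70 in the same gates). *Tagln* had 1.56 (0.73 in the endothelial gate, 0.11 without the top barcodes, and -0.82 in the muscle stem gate), and *Ecm1* 1.35 (0.66 in the endothelial gate, 0.44 without the top barcodes, and -0.69 in the macrophage gate).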

How the results depend on the processing

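No paired analysis was possible because each group is 1 library. Leaving out a replicate could not be tried for the same reason. Of 1390 values of named genes under the alternatives, 1107 lay within the counting interval of the main value and 27 reversed. A further 256 lay outside it in the same direction or were not called. Of the counts, 79 stayed within 1.5 times and 32 moved further. The limits are the single library per genotype, the 97 KO HFD B barcodes, and classes of few cells such as cavity-type macrophages. *Irgm1* ranged from 0.51 to 0.63 in the muscle stem gate, and *Eif3j1* from -2.52 to -1.52 over all gates.

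Genes called the same way in all 4 gates became 2, and those in 3 gates 1, under TMM scaling, centring, *Pdgfra*-positive barcodes kept, collagen-rich barcodes left out, and totals without genes over 1% of UMIs. A floor of 10 CPM gave 845 muscle stem, 1326 endothelial, 552 macrophage and 1736 B genes, 2 in all 4 gates, 23 in 3 gates and 276 in 1 gate alone, since more low genes were tested. A floor of 100 CPM gave 24, 41, 58 and 76 genes, 0 in 3 gates and 14 in 1 gate alone. A 2-fold limit gave 19, 33, 51 and 56 genes and 1 in 3 gates. The mean of each cell's CPM gave 70 macrophage and 389 B genes, and the macrophage gate had 261 genes without resident-type and 61 without cavity-type barcodes. The subclass removals for cavity-type and lymphatic-type barcodes and the removal of top barcodes were chosen after seeing the data.

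Reversed log2 ratios in the macrophage gate, with resident-type barcodes only, were *Thbs1* 4.77, *Serpinb2* 4.65, *Igfbp5* 1.57, *Igkc* -5.72, *Ltbp1* 2.38, *Itga6* 0.88, *Icam2* 2.38 and *Slpi* 8.95. Some resident-type barcodes were also cavity-type, and those of KO HFD held 189 *Prg4* UMIs against 5 in WT HFD. These ratios are therefore not values of resident macrophages alone. Without cavity-type barcodes the reversed ratios were *Thbs1* 0.42, *Ltbp1* 0.66, *Itga6* 0.16 and *Icam2* 0.34. Without doublets and double-gate barcodes, *Nts* was 2.80 in the muscle stem gate, *Cd74* 0.25, *H2-Aa* 0.96 and *H2-Eb1* 1.42 in the endothelial gate, *Igkc* -0.83 in the macrophage gate and *Retnla* -4.47 in the B gate. Without lymphatic-type and *Cd74* or *Lyz2* barcodes, *Cd74* was 0.50, *H2-Aa* 0.27 and *H2-Eb1* 1.27. Without collagen-rich barcodes, *Mfap5* was -0.82 and *Pi16* -0.49 in the muscle stem gate and *Igfbp5* 1.09 in the macrophage gate. Without top barcodes, *Nts* was 1.05 and macrophage *Igkc* -2.21, and *Ighv11-2* in the B gate was -0.13 without plasma-type barcodes. Beyond what an alternative leaves out by construction, the cause was not tested.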
